A study of Homo sapiens with 72 samples.

Results

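Gene expression at 0.014 µM omaveloxolone was compared with that of DMSO solvent controls in wildtype normal human dermal fibroblasts, primary connective-tissue cells of the skin. The 4 treated wells (K9, K19, L9 and L19 of a 384-well plate) were chosen by their dose label from 72 wells in all, and the controls were the 32 DMSO wells of plate columns 2 and 23, rows A to P. Wells were seeded with 1250 cells and held for 24 hours with compound or solvent, and no group carried a genetic change. The other 36 wells held omaveloxolone at 0.0005, 0.002, 0.005, 0.04, 0.12, 0.37, 1.11, 3.33 and 10 µM, 4 wells a dose. RNA was read by DRUG-seq, a barcoded method that counts the 3′ ends of polyadenylated RNA in cell lysates, and the deposit holds a count for each gene in each well. Fewer cells and less RNA per cell cannot be told apart in such lysates. The wells are numbered as biological replicates, but nothing says that they came from separate cultures or donors, so the p-values measure the spread between wells, which may be technical. The protocol speaks of 16 DMSO wells on a plate, while 32 wells carried the label and all were used.

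Omaveloxolone is a synthetic triterpenoid that binds cysteines of KEAP1. KEAP1 is the adaptor that delivers the transcription factor NRF2 (gene NFE2L2) to a CUL3 ubiquitin ligase for degradation. When KEAP1 is modified, newly made NRF2 escapes, enters the nucleus, pairs with a small MAF protein and binds antioxidant response elements near genes for glutathione and thioredoxin metabolism, NADPH supply, detoxification, and heme and iron handling. BACH1 competes for the same elements and is removed when heme is bound, and HMOX1 is among the genes most tightly held by BACH1. In dermal fibroblasts this system answers oxidants and electrophiles.

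The core of the antioxidant response element, TGACNNNGC on either strand, was looked for in 300 bases of RefSeq sequence (GRCh38.p14) per gene, from 250 before to 50 after the start. Of 23 genes higher at 0.014 µM that had a DMSO mean of at least 5 CPM (counts relative to the TMM-scaled library size), 18 matched an entry of that table, and HMOX1, FTH1 and SLC7A11 were among those that did not. The core stood in 5 of the 18 (27.8%), against 1618 of the 10918 tested genes with an entry (14.8%) and 3702 of all 27305 promoters (13.6%). These 5 are shown because they pair a higher gene with the core near its start. Each reads 5′ to 3′ on the strand of its gene, with the core, or its reverse complement, in capitals.

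TXNRD1: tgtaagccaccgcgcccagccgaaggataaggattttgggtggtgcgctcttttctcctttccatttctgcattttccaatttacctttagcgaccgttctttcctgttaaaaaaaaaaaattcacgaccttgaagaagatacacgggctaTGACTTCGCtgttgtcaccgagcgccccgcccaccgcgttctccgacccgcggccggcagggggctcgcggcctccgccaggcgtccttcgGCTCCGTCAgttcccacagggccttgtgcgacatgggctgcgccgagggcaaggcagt

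GCLM: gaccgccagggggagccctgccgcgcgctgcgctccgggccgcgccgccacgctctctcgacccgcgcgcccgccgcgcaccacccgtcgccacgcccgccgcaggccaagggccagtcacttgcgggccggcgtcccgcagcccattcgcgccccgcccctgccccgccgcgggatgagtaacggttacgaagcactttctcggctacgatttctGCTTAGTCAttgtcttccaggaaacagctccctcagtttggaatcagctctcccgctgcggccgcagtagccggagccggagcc

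PGD: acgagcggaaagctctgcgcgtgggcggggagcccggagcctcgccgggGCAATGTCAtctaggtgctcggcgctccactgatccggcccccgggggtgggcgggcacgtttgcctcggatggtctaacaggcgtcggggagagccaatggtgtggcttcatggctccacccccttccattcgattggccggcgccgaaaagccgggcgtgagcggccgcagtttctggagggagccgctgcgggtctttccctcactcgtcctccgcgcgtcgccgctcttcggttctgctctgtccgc

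PIR: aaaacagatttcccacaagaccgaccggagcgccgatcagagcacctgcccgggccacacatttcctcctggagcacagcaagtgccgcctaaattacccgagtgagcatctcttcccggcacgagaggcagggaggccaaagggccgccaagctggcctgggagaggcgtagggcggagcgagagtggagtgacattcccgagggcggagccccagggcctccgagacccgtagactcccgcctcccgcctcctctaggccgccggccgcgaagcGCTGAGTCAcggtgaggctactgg

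CBR1: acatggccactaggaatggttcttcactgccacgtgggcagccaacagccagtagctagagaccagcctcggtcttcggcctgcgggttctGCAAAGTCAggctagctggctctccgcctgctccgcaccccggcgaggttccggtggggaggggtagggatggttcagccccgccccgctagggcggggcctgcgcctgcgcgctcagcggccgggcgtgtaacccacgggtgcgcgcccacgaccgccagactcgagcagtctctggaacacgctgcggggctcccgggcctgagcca

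The TXNRD1 window (chr12:104215529-104215828, plus strand) held 2 copies, TGACTTCGC with its first base 99 before the start and TGACGGAGC on the other strand 8 before the start. In GCLM (chr1:93909381-93909680, minus strand) the copy was TGACTAAGC, read from the opposite strand, 34 before the start. In PIR (chrX:15493284-15493583, minus strand) the copy was TGACTCAGC at base 27 after the start, which also holds the AP-1 motif TGACTCA. PGD (chr1:10398814-10399113, plus strand) held TGACATTGC at 201 and CBR1 (chr21:36069774-36070073, plus strand) TGACTTTGC at 159 bases before the start, both on the opposite strand. A match is a string of letters, not a binding site, and sequence farther away was not analysed here.

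At 0.014 µM few genes were called, and nearly all of them were higher. Genes are called higher or lower where the adjusted p of the comparison was under 0.05. Of 14259 genes tested, 29 were higher (0.203%) and 2 were lower (0.014%), 31 in all (0.217%). The higher genes included the quinone reductase NQO1 (3.77-fold, 95% interval 3.15 to 4.52), the cystine transporter subunit SLC7A11 (4.68-fold, 2.5 to 8.75), pirin (PIR, 4.39-fold, 3.07 to 6.28) and thioredoxin reductase (TXNRD1, 2.63-fold, 2.18 to 3.16), with the ferritin chains, the pentose phosphate enzymes and the aldo-keto reductases. The lower genes were BDKRB2, the bradykinin receptor B2, and COX7B, a subunit of cytochrome c oxidase. In 24 genes (0.168%) all 4 treated wells lay above all 32 DMSO wells, and in 1 gene (0.00701%), CLDN11, all 4 lay below. At an unadjusted p under 0.05, 259 genes were higher (1.82%) and 548 lower (3.84%). The counts differed between ways of fitting, and the cause was not tested. Without the wells at 1.11, 3.33 and 10 µM, 55 genes were higher (0.388%) and 21 lower (0.148%). With the DMSO and 0.014 µM wells alone, 46 were higher (0.344%) and 43 lower (0.322%). With controls only from rows K and L, 4 were higher and 0 lower.

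**Figure D1:**
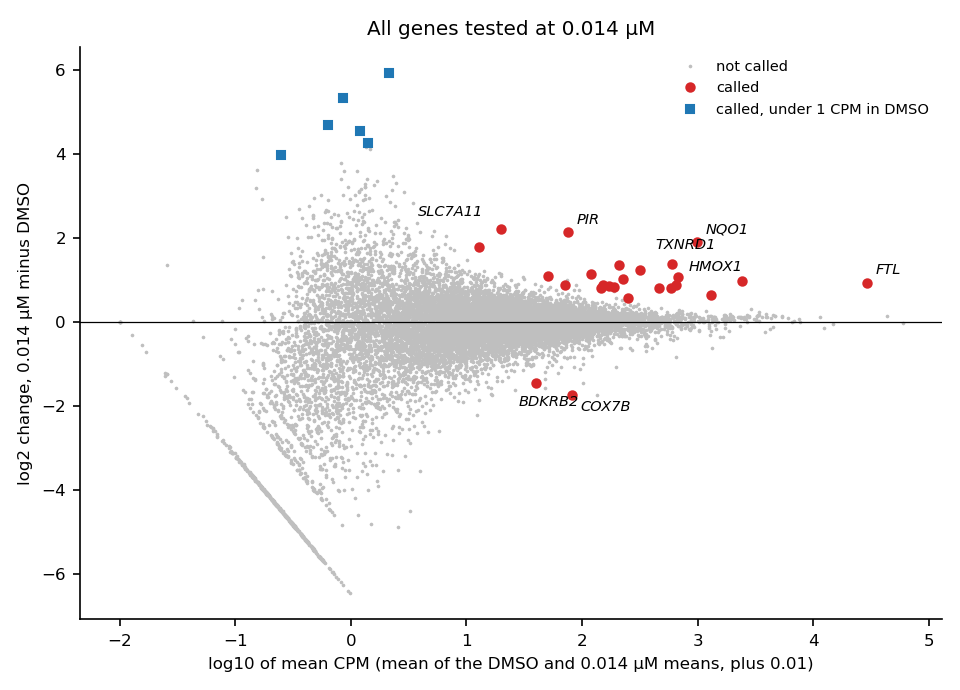
Log2 change at 0.014 µM minus DMSO (vertical axis) against the log10 of mean CPM (horizontal axis) for all 14259 genes tested. Red circles are called genes, blue squares are the 6 called genes with a DMSO mean under 1 CPM, and grey points are genes not called; the called genes of moderate and high level lie above 0 except BDKRB2 and COX7B.

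Of the 29 higher genes, 23 had a DMSO mean of at least 5 CPM, a limit set after the values were seen. Members of these 23 are described by role. In 19 of them the 4 treated wells did not overlap the DMSO wells. The calls of 14 held when each treated well was left out in turn, and 9 lost the call without at least 1 well.

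The thioredoxin and glutathione systems keep protein thiols reduced. NQO1 (chr16:69706996-69726951), which reduces quinones by a pair of electrons, read 1771 CPM in K9, 1560 in K19, 1516 in L9 and 1469 in L19. The DMSO wells ran from 326 through a median of 424 to 535 CPM. Every treated well stood above every control, a log2 change of 1.91 (SE 0.13, adjusted p = 1.52e-19). TXNRD1 (chr12:104215779-104350305), which regenerates thioredoxin with NADPH, read 926 CPM in K9, 750 in K19, 875 in L9 and 947 in L19, against 271, 333 and 420 CPM as the lowest, median and highest DMSO wells. The groups did not overlap, and the log2 change was 1.39 (SE 0.13, adjusted p = 1.38e-12). Thioredoxin itself (TXN, chr9:110243811-110256640) varied little between treated wells, at 3137, 3277, 3108 and 3309 CPM in K9, K19, L9 and L19. Its DMSO wells lay between 1221 and 1970 CPM (median 1606), and its log2 change was 0.98 (SE 0.09, adjusted p = 1.38e-12). TXN and TXNRD1 were the 2 called of 19 tested thioredoxin genes, beside 0.203% of all genes called higher. These 19 had a median log2 change of 0.08, beside -0.03 for all genes.

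The modifier subunit of glutamate-cysteine ligase, GCLM (chr1:93885205-93909456), which raises the activity of the first enzyme of glutathione synthesis, read 209 CPM in K9, 136 in K19, 121 in L9 and 196 in L19. DMSO wells ran from 34.3 to 119 CPM with a median of 75.8, so L9 cleared the highest control by little. The log2 change was 1.15 (SE 0.23, adjusted p = 0.00314), and it lost the call without K9 or without L19. The catalytic subunit GCLC was uneven, at 0.510, 3.53, 1.85 and 20.2 CPM in K9, K19, L9 and L19 against a DMSO median of 10.4 CPM (log2 change -0.84, SE 0.76, adjusted p = 1). SLC7A11 (chr4:138164097-138242349), which brings in cystine for glutathione, read 38.1 CPM in K9, 47.7 in K19, 15.8 in L9 and 29.3 in L19. Its DMSO wells ran from 0 to 20.4 CPM (median 4.98), and L9 fell inside that range. The log2 change was 2.23 (SE 0.45, adjusted p = 0.00437), which lost the call without K9 or without K19. GCLM and SLC7A11 were the 2 called of 32 tested glutathione genes, beside 0.203% of all genes called higher, and the list median was 0.19.

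**Figure D2:**
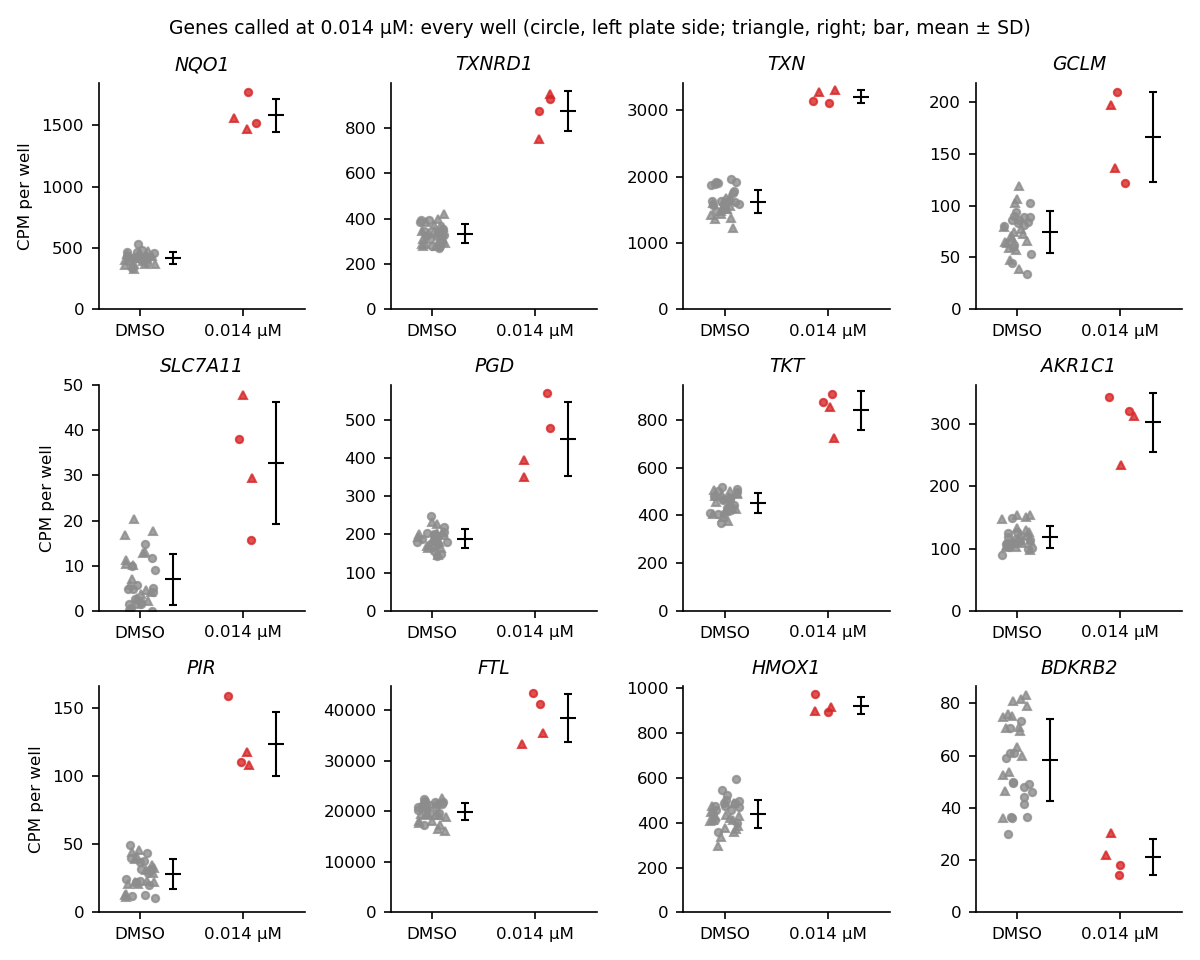
CPM in every well (vertical axes, from 0) of 12 called genes in the 32 DMSO wells (grey) and the 4 wells at 0.014 µM (red). Circles are wells of the left plate side, triangles wells of the right side, and bars the mean ± SD; apart from 1 SLC7A11 well and 1 BDKRB2 well the treated wells lie outside the range of the controls.

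The pentose phosphate pathway makes NADPH, and PGD, TKT and TALDO1 of this pathway were called higher. Phosphogluconate dehydrogenase (PGD, chr1:10398592-10420144), an NADPH-making enzyme, read 571 CPM in K9, 395 in K19, 479 in L9 and 351 in L19, against DMSO values of 145 to 248 CPM (median 187). The left-side wells K9 and L9 were the higher ones, and the log2 change was 1.25 (SE 0.17, adjusted p = 2.83e-07). Transketolase (TKT, chr3:53224707-53256052) and transaldolase (TALDO1, chr11:747329-765024) run the branch that links these sugars back to glycolysis. TKT read 875, 855, 908 and 723 CPM in K9, K19, L9 and L19 and TALDO1 639, 643, 590 and 483 CPM. Both were clear of their highest DMSO wells, 519 and 432 CPM, with log2 changes of 0.89 (adjusted p = 3.89e-06) and 0.80 (adjusted p = 0.0396). The TALDO1 call was lost without any 1 of the 4 wells. Malic enzyme ME1 stood at 0.61 without a call (adjusted p = 0.80), with 2 of 4 wells above the highest control.

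Reductases and dehydrogenases of quinones, carbonyls and aldehydes gave 8 called higher and 0 lower of 27 tested members, beside 0.203% of all genes called higher and 0.014% lower, with a list median of 0.48. The aldo-keto reductases AKR1C1, AKR1C2 and AKR1C3 reduce carbonyls of steroids, prostaglandins and lipid aldehydes, and sit beside each other on chromosome 10. AKR1C1 (chr10:4963253-4983283) read 344, 313, 321 and 235 CPM in K9, K19, L9 and L19 against a DMSO median of 114 (highest 155), a log2 change of 1.36 (SE 0.18, adjusted p = 1.04e-07). AKR1C2 read 309, 299, 296 and 311 CPM against a median of 145, a log2 change of 1.03 (adjusted p = 5.52e-05), and AKR1C3 read 856, 688, 773 and 701 CPM against 428, a log2 change of 0.81 (adjusted p = 0.000366). All 12 of these well values were above the DMSO range of their gene. The 3 genes are near copies in sequence, so the split of reads between them is uncertain. Prostaglandin reductase PTGR1 changed by 0.86 (199 to 248 CPM against 74.8 to 167, adjusted p = 0.000303) and the fatty aldehyde dehydrogenase ALDH3A2 by 0.84 (220 to 274 CPM against 84.3 to 200, adjusted p = 0.0045). Carbonyl reductase CBR1 changed by 0.58 (251 to 346 CPM against 174 to 256, adjusted p = 0.0396), with L19 inside the control range. The call of ALDH3A2 was lost without K9, and that of CBR1 without K9, without K19 or without L9. Pirin (PIR, chrX:15384799-15493564), an iron-binding protein able to open a flavonol ring, read 159, 109, 110 and 118 CPM in K9, K19, L9 and L19. Its DMSO wells spanned 11.0 to 49.6 CPM (median 28.9) and its log2 change was 2.14 (SE 0.26, adjusted p = 1.52e-08).

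Ferritin stores iron as a shell of light and heavy chains, and heme oxygenase frees iron from heme. The light chain FTL (chr19:48965301-48966878) read 43434 CPM in K9, 35580 in K19, 41222 in L9 and 33267 in L19, against DMSO values of 16193 to 22597 CPM (median 20004). The treated wells did not reach down to the controls, and the log2 change was 0.94 (SE 0.07, adjusted p = 9.52e-17). The heavy chain FTH1 (chr11:61959718-61967660) changed by 0.66 (SE 0.12, adjusted p = 0.0012), with 1727, 1420, 1730 and 1475 CPM against a highest control of 1212. In both chains K9 and L9, on the left side, were above K19 and L19. Reads of the ferritin genes can be shared with their processed pseudogenes. HMOX1 (chr22:35380361-35394214) read 897, 900, 976 and 918 CPM in K9, K19, L9 and L19, the tightest of this group, against 296, 436 and 593 CPM as lowest, median and highest controls. Its log2 change was 1.07 (SE 0.16, adjusted p = 4.15e-06). Of 28 heme and iron genes 3 were called, beside 0.203% of all genes called higher, and the list median was 0.11. The heme transporter SLC48A1 had all 4 wells above the DMSO maximum of 44.0 CPM without a call (log2 change 0.86, adjusted p = 0.301).

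The remaining higher genes have other roles. UCHL1, a ubiquitin hydrolase known from neurons, read 215, 206, 188 and 184 CPM in K9, K19, L9 and L19 with a highest control of 140 (log2 change 0.89, SE 0.17, adjusted p = 0.00128). The serine synthesis enzyme PSAT1, a target of ATF4, read 191, 145, 180 and 226 CPM with a highest control of 143 (log2 change 0.82, adjusted p = 0.0109). It lost the call without K9, without L9 or without L19. The TRIM family gene TRIM16L read 20.7, 32.0, 21.8 and 5.65 CPM, and L19 lay within the DMSO range of 1.15 to 14.6 (log2 change 1.79, adjusted p = 0.0125), and the call was lost without K9, without K19 or without L9. Its reads can be shared with TRIM16, which stood at 0.99 without a call (adjusted p = 0.48). POPDC3, a cAMP-binding membrane protein, read 74.3, 78.1, 58.4 and 64.3 CPM (log2 change 1.09, adjusted p = 0.0418). All 4 wells lay above the DMSO median of 27.9 and below the highest control of 86.8, and the call was lost without any 1 of the 4 wells.

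Among 45 tested members of a list of direct NRF2 targets, 19 were called higher and 0 lower, against 0.203% of all genes called higher. Positive changes numbered 41 of 45, with a list median of 0.84 beside -0.03 for all genes. The list was chosen with results on these wells known and is no independent evidence of its direction. SRXN1, GPX2 and ADH7 were counted but did not pass the filter on low counts. Of the members that were not called, glutaredoxin (GLRX) read 210, 232, 247 and 259 CPM in K9, K19, L9 and L19 against a DMSO median of 135 and maximum of 211 (log2 change 0.74, adjusted p = 0.0519). OSGIN1 had a log2 change of 1.80 (SE 0.52, adjusted p = 0.266) at 4.53 to 11.9 CPM. The aldose reductase AKR1B1 and the autophagy receptor SQSTM1 had all 4 wells above all controls without a call (log2 changes 0.61 and 0.40, adjusted p = 0.405 and 0.87). Epoxide hydrolase EPHX1 stood at 0.84 (adjusted p = 0.203).

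The regulators of the pathway were not called, 0 of 15 tested, with a median of 0.01. Of all genes 0.217% were called, and at that share 0 calls are usual in so short a list. SQSTM1, also on this list, had all 4 wells above all controls and was called in the fit without the 3 highest doses. NFE2L2 read 143 to 168 CPM in the treated wells and 87.6 to 218 in DMSO (log2 change 0.17, SE 0.20). KEAP1 read 63.7 to 84.6 against 34.0 to 92.9 CPM (log2 change 0.31, SE 0.20), and BACH1 54.9 to 94.9 against 43.5 to 110 CPM (log2 change 0.11, SE 0.26). In all 3 the treated wells lay inside the control range (adjusted p = 1, 0.97 and 1). The small MAF gene MAFG read 86.0, 57.8, 27.3 and 62.4 CPM in K9, K19, L9 and L19, with 3 wells above the highest control of 57.2 and L9 below the DMSO median (log2 change 0.72, adjusted p = 0.819).

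**Figure D3:**
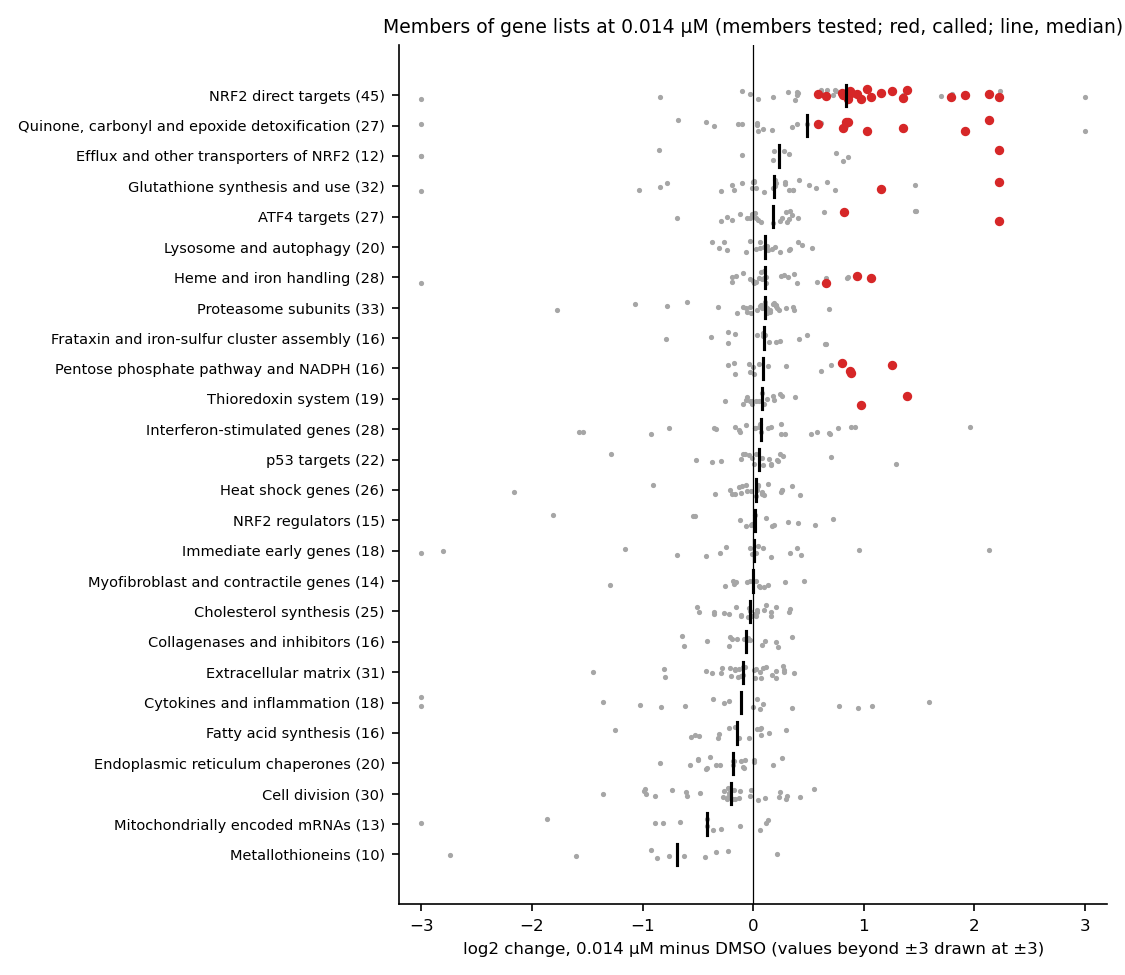
Log2 change at 0.014 µM minus DMSO (horizontal axis) of the tested members of 26 gene lists (rows, ordered by median). Red circles are called members, grey points members not called, and black lines list medians; the NRF2 list has the highest median, 0.84, and the metallothionein list the lowest, -0.69.

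Both lower genes had 3 of 4 wells below every control. BDKRB2 (chr14:96204679-96244166), through which bradykinin signals, read 18.2 CPM in K9, 30.3 in K19, 14.4 in L9 and 21.9 in L19, against 29.9, 59.4 and 83.2 CPM as lowest, median and highest DMSO wells. The log2 change was -1.45 (SE 0.34, adjusted p = 0.0374). The call was lost without any 1 of the 4 treated wells (adjusted p from 0.0501 to 0.332), with log2 changes from -1.68 to -1.32. COX7B (chrX:77899438-77907373) read 12.1 CPM in K9 and 11.8 in L9 but 36.6 in K19 and 90.8 in L19, against 51.8, 133 and 184 CPM in DMSO (log2 change -1.72, SE 0.42, adjusted p = 0.0418). Its change differed between plate sides, and the call was lost without K9, without K19 or without L9. CLDN11, a tight junction protein named after its values were seen, read 1123, 1058, 970 and 1056 CPM in K9, K19, L9 and L19, against a DMSO median of 1601. All 4 wells were below all controls, yet the gene was not called (adjusted p = 0.0881).

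The other 6 higher genes had a DMSO mean under 1 CPM and counts in few wells. ENSG00000249741, a processed pseudogene (chr4:143911514-143912053), had 100 counts in K9 and 0 in the other 3 wells. ENSG00000272822 had 29 counts in L9 and 0 elsewhere in the group, and ZNF804A 15 counts in K19 and 0 elsewhere. TMPRSS11B had 38 counts in K19 and 1 in L19. These 4 calls rested on a single well each and were lost without it. KCTD19 had 36 counts in K19, 33 in L19 and 1 in K9, and the olfactory receptor gene OR56A1 had 13, 26 and 19 counts in K9, L9 and L19. The KCTD19 call was lost without K19 or without L19, and that of OR56A1 without K9, without L9 or without L19.

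Another 45 genes were called in the fit without the 3 highest doses, 26 higher and 19 lower, and the following were named after their values were seen. Higher genes in this fit included GLRX at a log2 change of 0.74 (adjusted p = 2.06e-05), AKR1B1 at 0.60 (7.15e-06), SQSTM1 at 0.40 (0.00284), SLC48A1 at 0.85 (0.0055) and EPHX1 at 0.84 (0.0055). The glutathione transferase GSTP1 read 661 to 826 CPM against a DMSO median of 612, with 3 wells above the highest control (log2 change 0.28, adjusted p = 0.011). Biliverdin reductase BLVRB, which acts after heme oxygenase, read 152 to 201 CPM against a median of 133 (log2 change 0.39, adjusted p = 0.0109). The glutamine transporter SLC1A5 read 82.2 to 121 CPM against 65.3 (log2 change 0.76, adjusted p = 0.00187). Lower genes in this fit were led by CLDN11 (-0.62, adjusted p = 1.64e-07). The actin-severing protein gelsolin (GSN) read 520 to 649 CPM against a DMSO median of 739, with 3 wells below the lowest control (-0.38, adjusted p = 0.000735). The hormone adrenomedullin (ADM) read 260 to 341 CPM against 425 (-0.57, adjusted p = 0.00832), and caveolin CAV1 3234 to 3878 CPM against 4095 (-0.24, adjusted p = 0.00786). MT1E was called lower as well (-0.93, adjusted p = 0.0034).

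Lists outside the NRF2 pathway gave 0 calls apart from ATF4 targets, where SLC7A11 and PSAT1 were the 2 called of 27 (median 0.18). The transporter list held SLC7A11 as its 1 called gene of 12 (median 0.23). Beside both lists, 0.203% of all genes were called higher. No member was called among heat shock genes (26 tested, median 0.03), proteasome subunits (33, 0.10), lysosome and autophagy genes (20, 0.11), frataxin and iron-sulfur cluster genes (16, 0.10), p53 targets (22, 0.05) or interferon-stimulated genes (28, 0.07). The same held for matrix genes (31, -0.09), collagenases and inhibitors (16, -0.07), myofibroblast genes (14, -0.00), cholesterol synthesis (25, -0.03), fatty acid synthesis (16, -0.14), cytokines (18, -0.11), immediate early genes (18, 0.01) and cell division genes (30, -0.20). Chaperones of the endoplasmic reticulum had 16 of 20 negative changes (median -0.19). The smallest p among them was that of calreticulin (CALR), which read 219 to 361 CPM against a DMSO median of 427 (log2 change -0.57, adjusted p = 0.331). Metallothioneins, which buffer metals, and other zinc genes had 9 of 10 negative changes (median -0.69). On the left plate side alone the median of 9 members was -1.09 with 2 called, where 191 of all 13358 genes were called. On the right side alone it was -0.55 with 0 called. MT1E read 33.5, 48.1, 33.6 and 47.9 CPM in K9, K19, L9 and L19, with K9 and L9 below the lowest control of 44.5 (log2 change -0.92, adjusted p = 0.266). The matrix proteoglycan lumican (LUM) had a log2 change of -1.44 (SE 0.44, adjusted p = 0.36).

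The 23 genes were also followed over the neighbouring doses. They were chosen because they were called at 0.014 µM, so 23 of 23 at that dose follows from the choice. All doses share the 32 DMSO wells, so the counts at different doses are not independent. Called higher were 0 of the 23 at 0.0005 µM, 2 at 0.002, 5 at 0.005, 23 at 0.014, 23 at 0.04, 23 at 0.12 and 19 at 0.37 µM, where the shares of all genes called higher were 0.00701% at 0.0005, 0.0561% at 0.002, 0.0631% at 0.005, 0.603% at 0.04, 1.31% at 0.12 and 11.2% at 0.37 µM. The median log2 change of the 23 was 0.10, 0.30, 0.47, 0.98, 1.59, 2.12 and 2.30 at the same 7 doses. NQO1 averaged 472 CPM (SD 17.5, n = 4) at 0.0005 µM, 708 (SD 70.0) at 0.002, 970 (SD 90.0) at 0.005, 1579 (SD 133) at 0.014 and 2637 CPM (SD 128) at 0.04 µM. HMOX1 ran a different course, with 393 CPM (SD 83.8) at 0.0005, 445 (SD 70.7) at 0.002, 507 (SD 55.3) at 0.005, 923 (SD 37.0) at 0.014, 2930 (SD 476) at 0.04 and 9822 CPM (SD 1276) at 0.12 µM. Its mean was near the DMSO mean of 440 up to 0.002 µM and above it at 0.014 µM. TKT did not keep rising, with means of 840 CPM at 0.014, 910.3 at 0.04, 841 at 0.12 and 240.3 at 0.37 µM. BDKRB2 averaged 56.6 CPM at 0.005, 21.2 at 0.014, 26.7 at 0.04, 9.00 at 0.12 and 0.495 at 0.37 µM, beside 58.3 in DMSO.

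**Figure D4:**
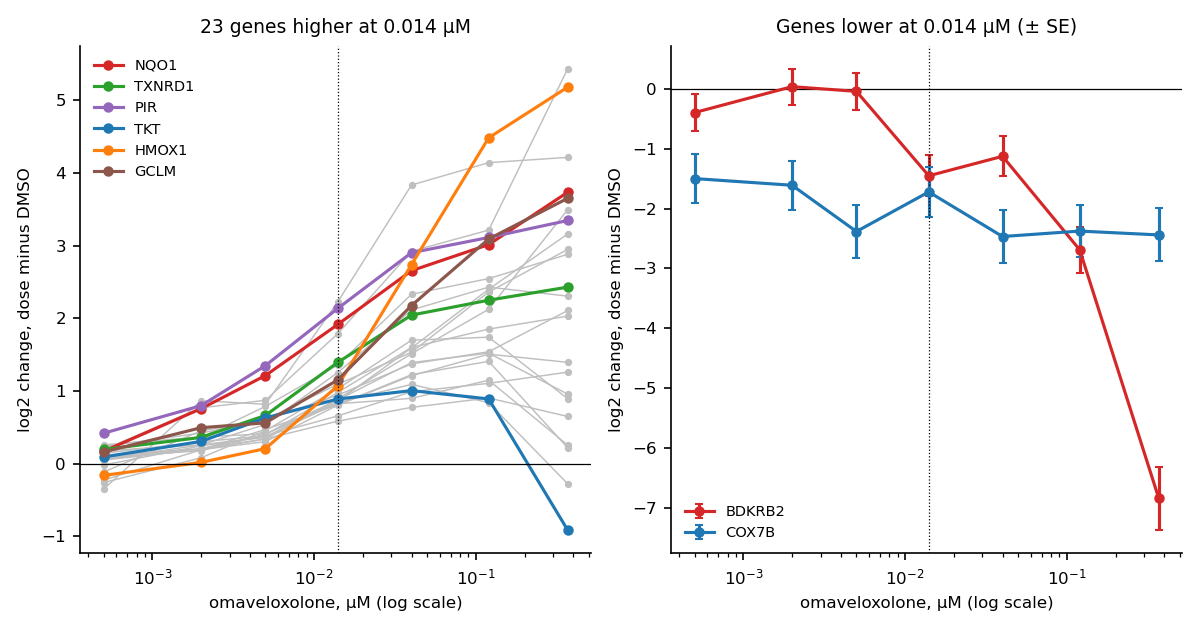
Log2 change against DMSO (vertical axes) over the doses from 0.0005 to 0.37 µM (horizontal log axes) for the 23 genes higher at 0.014 µM (left; 6 named in colour, the others grey) and for BDKRB2 and COX7B (right; bars are ± SE). The dotted line marks 0.014 µM; HMOX1 climbs from 1.07 there to 5.18 at 0.37 µM, TKT ends below 0, and COX7B is already at -1.50 at 0.0005 µM.

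The comparisons with the next doses set no DMSO well against a treated one. Between 0.005 and 0.014 µM edgeR's quasi-likelihood test called 0 genes (0%), with 255 higher (1.79%) and 243 lower (1.7%) at an unadjusted p under 0.05. The log2 change was 0.70 for NQO1 (95% interval 0.29 to 1.11), 0.86 for HMOX1 (0.40 to 1.33), 0.58 for TXN (0.31 to 0.86) and 0.73 for TXNRD1 (0.32 to 1.13). Those 4 genes were called by the DESeq2 Wald test (adjusted p from 0.00506 for TXN to 0.0227 for HMOX1), and with PGD they made up 5 calls without the wells at 1.11, 3.33 and 10 µM. Between 0.014 and 0.04 µM 1 gene was called (0.00701%), and at an unadjusted p under 0.05 301 were higher (2.11%) and 336 lower (2.36%). The called gene was HMOX1, whose wells read between 897 and 976 CPM at 0.014 µM and between 2551 and 3619 CPM at 0.04 µM. The log2 change was 1.67 (SE 0.24, adjusted p = 1.25e-05). With the replicate number as a block in the fit of all wells, the log2 change was 1.66 and the call was lost (adjusted p = 0.0887). Wells of the same number lay in the same row and neighbouring columns at 0.014 and 0.04 µM. At 0.005 µM and below, the same numbers lay on the other plate side. Numbers 1 to 4 were shared by all doses and DMSO, so the lost call does not test the pairing of neighbouring wells alone. Numbers 5 to 32 occurred only in DMSO, so in this fit those wells were fitted exactly and added nothing to the spread. NQO1 changed by 0.74 (0.33 to 1.15) over this step and FTL by 0.43 (0.22 to 0.64), and neither was called (adjusted p = 0.827 and 0.395). Without the 3 highest doses 11 genes were higher and 4 lower over this step, and with the Wald test 11 and 3.

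Plate position touched some of these results. DMSO wells lay only in columns 2 and 23, and the treated wells in rows K and L at columns 9 and 19, so position and treatment cannot be fully told apart. The test of whether the change differed between left wells (K9 and L9 against column 2) and right wells (K19 and L19 against column 23) called 43 of 13358 genes (0.322%), of which 1, COX7B, was also called against DMSO. COX7B changed by -3.77 on the left and -0.48 on the right (difference 3.29, adjusted p = 1.60e-07). Column 2 itself read 132 to 184 CPM and column 23 51.8 to 138 CPM of COX7B. The left treated wells were also low at 0.0005 µM, at 15.4 and 18.1 CPM, where the right ones read 65.1 and 78.7 CPM. Against the 4 wells at 0.0005 µM, COX7B changed by -0.22 at 0.014 µM and was not called, while NQO1 changed by 1.74 (adjusted p = 5.97e-08). BDKRB2 read 39.2 to 50.02 CPM at 0.0005 µM and changed by -1.06 against those wells, without a call (adjusted p = 1).

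The 43 genes shared a pattern in the left wells. In 40 the change was more negative on the left than on the right, and 39 of the 43 were called lower on the left side alone. The part of well position in these values was not tested. Examples named after their values were seen are MT-ND2 and MT-ATP6, mitochondrially encoded subunits of the respiratory chain and of ATP synthase. MT-ND2 read 15.1 CPM in K9 and 9.27 in L9 but 139 in K19 and 189 in L19, with DMSO at 100.1 to 191 CPM. MT-ATP6 read 49.8 and 81.1 CPM on the left and 351 and 358 on the right. The left wells at 0.0005 µM were low in the same way, at 20.6 and 21.1 CPM of MT-ND2. These 40 genes were chosen at 0.014 µM, and each dose was set against the same DMSO wells. Their median log2 ratio of treated to DMSO means (1 CPM added) was taken at 0.0005, 0.002, 0.005, 0.014, 0.04 and 0.12 µM. On the left it was -1.56, -1.90, -1.65, -2.03, -1.68 and -1.18 at these doses, and on the right -0.00, -0.14, -0.13, -0.06, -0.07 and -0.23. The 13 mitochondrially encoded mRNAs had a median change of -0.42 at 0.014 µM with 0 called. On the left alone their median was -0.53 with 7 called, on the right alone it was -0.09 with 0 called, and 2 of the 13 differed between sides. Of all 13358 genes, 191 were called on the left alone and 35 on the right alone. Interferon-stimulated genes had medians of -0.51 on the left and 0.58 on the right, and their IFI27 read 259 CPM in L19 against 52.1 to 77.1 CPM in the other 3 wells. Of the 23 higher genes, 0 passed the test of a difference between sides, 23 were positive on each side, 20 were called on the left alone and 21 on the right alone. These genes were chosen by their calls in the same 4 treated wells, so the counts on each side follow in large part from the choice. Between the DMSO columns themselves, 679 of the 13358 genes were called. They included TXN, FTL, HMOX1 and POPDC3, with log2 differences (column 23 minus column 2) of -0.20, -0.15, -0.24 and -0.53. BDKRB2 was called as well, at 0.43. On the left alone 59 genes were higher and 132 lower, and on the right alone 28 and 7.

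**Figure D5:**
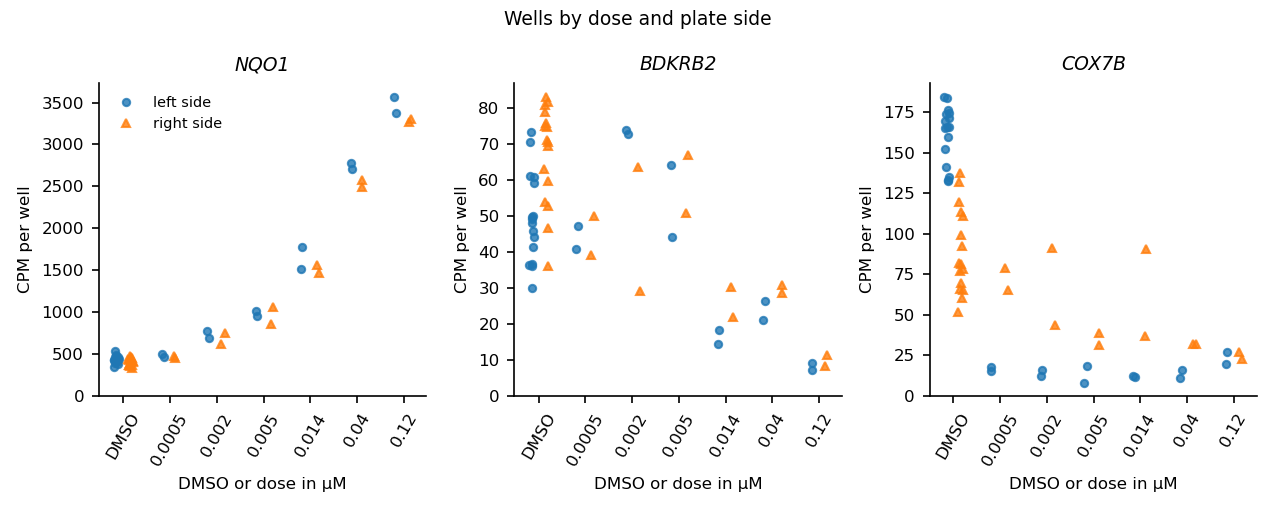
CPM per well (vertical axes, from 0) of NQO1, BDKRB2 and COX7B in DMSO and at 6 doses (horizontal axes), with wells of the left plate side as blue circles and of the right side as orange triangles. NQO1 rises with dose on both sides and BDKRB2 is low from 0.014 µM on, while the left wells of COX7B are below 30 CPM at every dose shown.

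Depth and marker levels overlapped between the groups. Treated wells held 4714400 to 8296636 counts (mean 6772871 ± 1561363 SD, n = 4) and DMSO wells 4910790 to 8685413 (mean 6656984 ± 932165, n = 32), with p = 0.8294 in an exact two-sided permutation test over 58905 splits. Genes detected averaged 13803 against 13916 (exact permutation p = 0.662) and mitochondrially encoded mRNAs took 0.890% against 0.955% of counts (exact permutation p = 0.472), and each adjusted p of the 3 tests was 0.8294. In CPM without TMM scaling, 13 summed fibroblast markers, VIM and COL1A1 among them, read 72608 to 74286 in the treated wells and 71164 to 84652 in DMSO, with 0 of 13 called. The fibroblast activation protein FAP ranged most, at 13.3 to 139 CPM in the treated wells against 65.9 to 235 in DMSO. It was among the 43 genes that differed between plate sides, with log2 changes of -2.45 on the left and -0.28 on the right. On the left alone 2 of the 13 markers were called and on the right alone 0, where 191 and 35 of all 13358 genes were called. Of the markers of other cell types, TP63 and SFN of keratinocytes, TYRP1 and DCT of melanocytes, CDH5 and TEK of endothelium, and PTPRC and CD3D of leukocytes were at 0 in every treated well. Others were not at 0, with VWF of endothelium at 0.212 to 2.11 CPM in the treated wells against a highest control of 0.331, KDR at 0 to 1.21 against 0, and PMEL of melanocytes at 0 to 1.57 against 0.345. CDH1 of keratinocytes reached 1.84 CPM against a highest control of 4.91. The 6 endothelial markers counted summed to 0.212 to 3.16 CPM against 0 to 8.11 in DMSO, and the part of these low levels in the results was not tested. The sums of the keratinocyte, melanocyte and immune lists came almost wholly from KRT10, MITF and CD68, which read 411 to 498, 21.0 to 41.1 and 113 to 119 CPM in the treated wells, each inside its DMSO range. The 7 pericyte and smooth muscle markers summed to 7.64 to 16.3 CPM against 3.64 to 29.6 in DMSO.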

How the data were processed

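Fibroblasts in 72 wells of a 384-well plate were profiled by DRUG-seq, with 4 wells at 0.014 µM and 32 DMSO wells compared here. The deposited values were raw counts per gene and well, whole numbers without normalization, which the authors made with kallisto and bustools on GRCh38, per the submitters' processing notes. Versions, annotation and any collapsing of molecular identifiers are not given in the sources used here, and whether a count is a read or a molecule is unknown. Of 23170 genes, 23078 matched GENCODE release 29 (GRCh38), which gave the gene coordinates. A separate reference of gene names gave symbols for 21289. Y-linked genes and XIST (38) were left out.

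All 72 wells entered 1 quasi-likelihood fit of edgeR 4.0.16 in R 4.3.3 (TMM, a filterByExpr minimum count of 10, robust dispersion), which left 14259 genes. Benjamini-Hochberg adjustment ran over all genes of a comparison, and a gene was called at an adjusted p under 0.05. Fold changes come from that fit, the SE from its F value, and CPM from TMM-scaled libraries. The difference between plate sides was an interaction in a fit of the 36 DMSO and 0.014 µM wells. Well measures were compared by exact permutation tests. The fits were tested on simulated data. Alternatives were DESeq2 1.42.0 (size factors, Wald test), other count filters, fewer wells in the fit, other reference wells, plate side or replicate number as a term, and leaving out each treated well.

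Named genes were NFE2L2, KEAP1, BACH1, NQO1, HMOX1, OSGIN1, SLC7A11, SRXN1, TXNRD1, GCLC and GCLM, every called gene, up to 3 members of each of 26 lists with the smallest p, and genes called against a neighbouring dose. The members and lists were chosen with earlier results of these data known. Other genes in the text were named after their values were seen. Of the listed genes and markers, 9 were not among the counted genes. Between 0.04 and 0.014 µM, wells of the same replicate number lay in the same row. Their deviations correlated at 0.10, 0.11, 0.31 and 0.16 over 3257 genes. The best correlations with a well of another number were 0.11, 0.15, 0.09 and 0.15, so the numbers did not clearly pair those wells. The 4 treated wells differed from each other beyond sampling noise (chi-square per degree of freedom 20.9 to 29.7). A called gene that is counted but not described is not reported here.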

Additional observations from a re-analysis of the deposited data

Results flagged for a closer look

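In groups of 4 wells, a well was singled out where its gap to the nearest other well, as a share of the group's range, passed Dixon's 95% critical value, which chance does in about 1 of 20 groups. Of 96 groups examined, 12 met this. Among called genes, K9 stood apart with 17.0 CPM of ENSG00000249741, L9 with 6.72 CPM of ENSG00000272822, and K19 with 4.79 CPM of TMPRSS11B and 1.89 CPM of ZNF804A. Among genes that were not called, K9 stood apart with 76.6 CPM of the heme transporter SLC48A1, 12.4 CPM of cyclin CCNB1 and 1.87 CPM of the death receptor TNFRSF10B. Well L9 stood apart with 30.1 CPM of the amino acid transporter SLC7A5 and 24.6 CPM of the fatty acid elongase ELOVL6. Well L19 did so with 259 CPM of IFI27 and 20.2 CPM of GCLC, and K19 with 51.1 CPM of the transcription factor SRF.

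The change at 0.014 µM differed between plate sides by the interaction test in 3 named genes. Right minus left, the difference in log2 change was 3.29 for COX7B, 2.58 for the proteasome ATPase PSMC6 (-2.74 on the left, -0.16 on the right) and 1.92 for IFI27 (-0.24 on the left, 1.69 on the right).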

How the results depend on the processing

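Of the 31 called genes, only NQO1, FTL and TXN were called in every alternative that gave a value. The counts moved with the wells that set the spread and with the reference wells, and the causes were not tested. Against DMSO, the higher and lower genes numbered 157 and 6 with no filter on low counts, 46 and 43 with only the 2 groups compared, 55 and 21 without 1.11, 3.33 and 10 µM, 9 and 0 with the 0.0005 µM wells as reference, 4 and 0 with controls of rows K and L only, and 59 and 132 on the left plate side. Lower genes numbered 7 on the right side, 1 with DESeq2 size factors, 30 with the DESeq2 Wald test, and from 0 to 3 when each treated well was left out, where higher genes numbered 23 to 28. Called members of the NRF2 list numbered 7 with the 0.0005 µM reference and 4 with controls of rows K and L. Against 0.005 µM, 4 genes were higher with the 2 groups alone, 5 without the 3 highest doses and 4 with the Wald test. From 0.014 to 0.04 µM, 9, 11 and 11 were higher in those settings, and 4 and 3 lower in the last 2. With 1 treated well left out, log2 changes ran from -1.64 (without K9) to 6.34 for ENSG00000249741, from -0.89 (without L9) to 5.77 for ENSG00000272822 and from -0.51 (without K19) to 4.36 for ZNF804A, with adjusted p = 1 at each lower end because the well that held the counts was gone.

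With the replicate block, 4 genes were higher and 0 lower against DMSO, with 4 on the NRF2 list, 0 were called against 0.005 µM, and 0 from 0.014 to 0.04 µM. DMSO wells numbered above 4 each had a number of their own. The comparison with DMSO in this fit therefore rested on the 4 DMSO wells of rows A and B. Replicate numbers also did not pair 0.014 µM wells with DMSO or 0.005 µM wells (correlations of deviations 0.02 to -0.17 and -0.11 to -0.22). The lost calls there do not show a weaker change, and their cause was not tested. With 4 treated wells, genes of a few CPM were not measured closely enough to compare, as the wells of GCLC show.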
